A study of Canis lupus familiaris with 17 samples.

Results

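Conventional dendritic cells (cDCs) are rare leukocytes that take up antigen, load it onto MHC class II molecules and present it to T cells. They arise from bone marrow progenitors under the growth factor receptor FLT3 and fall into a cDC1 branch, which depends on the transcription factors IRF8 and BATF3, and a cDC2 branch, in which IRF4 is prominent and which shares many genes with monocytes. In blood they circulate in small numbers on their way to tissues, beside plasmacytoid dendritic cells (pDCs), the interferon-producing relatives that use TCF4.

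The cDCs described here were taken from single-cell RNA sequencing of blood leukocytes of 7 healthy dogs and 10 dogs with osteosarcoma (OS), a malignant tumor of bone. The healthy animals were middle-aged, clinically healthy pet dogs of different breeds, and the animals with OS were middle-aged to old pet dogs with a primary tumor and no treatment before the blood was drawn. All were labelled wild type, all cells were primary cells separated from EDTA blood over Ficoll, and each dog gave 1 library of 10x Genomics 3' counts, so that each replicate was a separate dog. The OS group covered a wider span of ages than the healthy group, and breed was mixed.

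A barcode was kept when it held 200 to 4500 genes, 500 to 20000 unique molecular identifiers (UMIs, 1 per captured RNA molecule) and under 10% mitochondrial UMIs. A kept barcode was counted as a cDC when it had at least 1 UMI of FLT3, at least 10 of the MHC class II gene DLA-DRA, none of the T cell gene CD3E or the B cell gene MS4A1, and a UMI of at least 2 of the 6 genes PKIB, NCAM2, BATF3, ZNF366, SDC2 and PID1. The cells were thus chosen by their measured RNA, so the levels of those genes describe the choice and are no result. It found 1028 cDCs among 84361 kept barcodes of 93013 deposited, of which 460 came from healthy dogs and 568 from dogs with OS. The number per dog ran from 18 to 134 with a median of 61. Gene levels are CPM, the UMIs of a gene per 1000000 UMIs summed over a dog's cDCs, and were given for the 15 dogs with at least 25 cDCs, which were 7 healthy dogs and 8 dogs with OS. Dogs 2 and 3 with OS, with 19 and 18 cDCs, were left out of gene levels per dog, but not of levels over pooled cells.

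The libraries held between 1332 and 7748 barcodes and between 7740230 and 56510134 UMIs per dog, and the summed cDCs of the 15 dogs held between 428330 and 1983607 UMIs. Of 91883 barcode sequences, 1124 occurred in more than 1 library, and 0 were cDCs in both. Scrublet marked 28 cDCs (2.72%) as likely doublets against 3598 of all kept barcodes (4.27%), and these stayed in. The marks were the highest scores up to a rate expected from the number of barcodes, so their total was set beforehand. Scrublet's own cutoff marked 3 cDCs and 1139 kept barcodes. Intervals on shares are exact 95% binomial intervals and cover counting error only.

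The rule genes describe the choice of cells. FLT3, the receptor that marks the lineage, was found at exactly 1 UMI in 212 cDCs, with a median of 4 and a maximum of 36. PKIB had a UMI in 84.7% of the cells, BATF3 in 81.2%, SDC2 in 65.4% and ZNF366 in 51.6%. In 34531 T cells, which should lack these genes and whose median was 5104 UMIs per cell against 15638 for cDCs, the same 4 genes had a UMI in 0.307%, 0.484%, 0.0811% and 0.0666%. These shares follow from the rule and are no check of it.

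The cDCs were then checked against genes the rule did not use, and a minority carried the profile of monocytes. Of the 1028 cDCs, 220 (21.4%) had a UMI of at least 5 of the 6 monocyte genes LYZ, BPI, LRMDA, F13A1, FN1 and NRG1. The share was 81.4% in monocytes, but these were themselves chosen by the same 6 genes. It therefore describes their choice and is no independent check of the 220 cells. Those 220 cDCs, called monocyte-gene-rich, were set apart after the values were seen. They lay at the lower edge of the rule, since 179 of them had exactly 2 of the 6 rule genes, 123 had a single FLT3 UMI, and 5 were marked as doublets. Among the 563 cDCs with 4 to 6 rule genes, 12 (2.13%) were monocyte-gene-rich.

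The monocyte-gene-rich cells and the other 808 also differed in genes outside that definition. The levels of these 2 kinds of cell, and those of cells near the thresholds below, are CPM over the pooled cells of all 17 dogs. Dogs with many such cells weigh more in them. VCAN, which encodes the matrix proteoglycan versican and marks classical monocytes, stood at 1348 CPM in the first and 71.9 CPM in the second. In the other direction, MRC1, which encodes the mannose receptor, stood at 14.5 and 328 CPM, and TMSB10, which encodes an actin-binding thymosin, at 3468 and 14804 CPM. MRC1 and TMSB10 were on no gene list and were chosen after their levels in cDCs beside other populations were seen, so they are no independent check. KIT, the stem cell factor receptor, was at 0.296 and 40.2 CPM. The share of monocyte-gene-rich cells per dog had a lowest, median and highest value of 6.73%, 16.4% and 55.1% in healthy dogs and 14.9%, 24.4% and 52.6% in dogs with OS. Healthy dog 1 and dogs 1 and 2 with OS were the 3 dogs in which at least 50% of cDCs were of this kind. Levels beside monocytes are therefore given for all cDCs and, for most genes named, again as a mean without these cells, where 11 dogs (5 healthy, 6 with OS) kept at least 25. Those means, and the fits without these cells, also leave out healthy dogs 1 and 2 and dogs 1 and 4 with OS. Changes due to the cells and to the dogs left out cannot be told apart there.

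**Figure D1:**
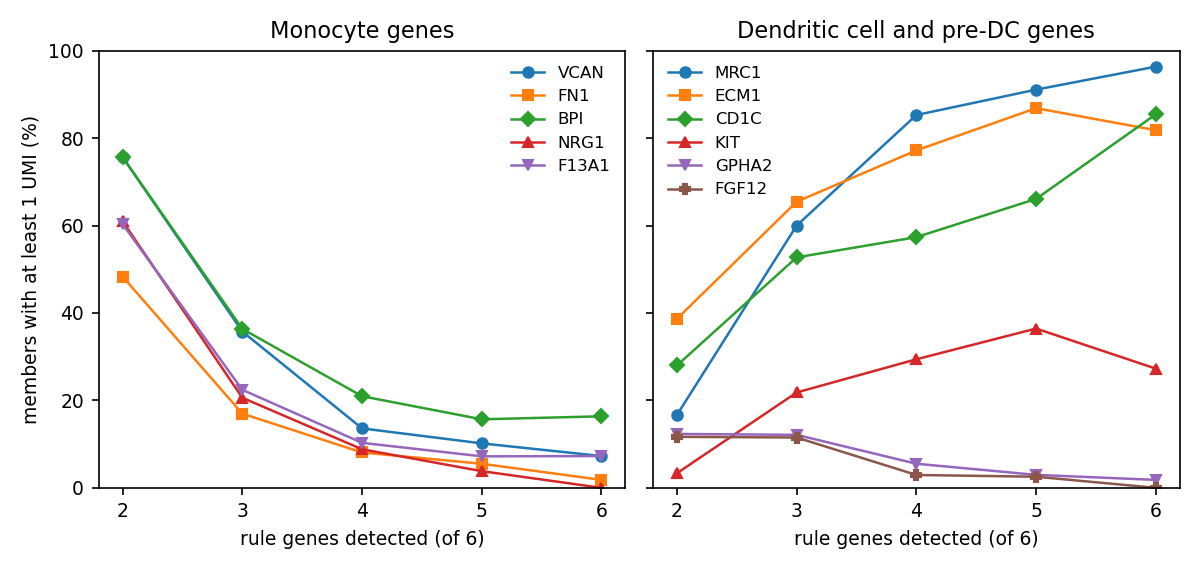
Share of cDCs with at least 1 UMI of a gene (y axis, %) by how many of the 6 rule genes the cell had (x axis), for 5 monocyte genes (left) and 6 genes of dendritic cells and their precursors (right); each line is 1 gene over 300, 165, 272, 236 and 55 cells. VCAN went down from 75.7% at 2 rule genes to 7.27% at 6, while MRC1 went up from 16.7% to 96.4%.

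The change along the rule was gradual. At 2, 3, 4, 5 and 6 rule genes, a VCAN UMI was present in 75.7%, 35.8%, 13.6%, 10.2% and 7.27% of the cells, against 5.07% of T cells. The same 5 classes held an MRC1 UMI in 16.7%, 60%, 85.3%, 91.1% and 96.4% of cells, against 0.249% of T cells. CD1C, which presents lipid antigens and marks cDC2s in other species, was found in 28% of cells with 2 rule genes and 85.5% of cells with 6.

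Cells just inside and just outside the thresholds are given as a description. The 956 kept barcodes with exactly 1 rule gene, which the rule leaves out, had a VCAN level of 1308 CPM and an MRC1 level of 10.6 CPM, and 71.4% of them were monocyte-gene-rich. The 300 cDCs with exactly 2 rule genes had 1020 CPM of VCAN and 39.6 CPM of MRC1, and 59.7% were monocyte-gene-rich. The DLA-DRA threshold cut between few cells, with 27 barcodes at 5 to 9 UMIs outside it and 23 at 10 to 19 inside, against a median of 126 and a range of 10 to 606. Those 27 and 23 cells had MRC1 at 532 and 445 CPM, TCF4 at 1385 and 1856 CPM and LYZ at 2826 and 5077 CPM, with median UMIs of 8353 and 9210. COBLL1 was at 88.7 and 284 CPM, with a UMI in 7.41% and 21.7% of them. The 212 cDCs with a single FLT3 UMI had 1040 CPM of VCAN, and the 816 with more had 187 CPM. The exclusion of CD3E and MS4A1 took out 83 barcodes that met the rest of the rule, 73 by CD3E and 11 by MS4A1.

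Markers of pre-DCs, pDCs, NK cells, T cells and B cells were counted in the cDCs. Pre-DCs are circulating precursors of dendritic cells, and 63 cDCs had at least 4 of 8 pre-DC markers, of which 56 had 2 or 3 rule genes. At least 4 of 8 pDC markers were present in 11 cDCs. The summed level of 6 NK cell markers ran from 0 to 17.1 CPM per dog with a median of 1.91, against a median of 851 CPM in T cells, and that of 7 T cell markers ran from 8.09 to 65.0 CPM against a median of 3168 CPM in T cells. The summed level of 7 B cell markers, at a median of 4839 CPM, was not usable, because CD79A, the B cell receptor subunit, was read in every population, at 8372 CPM in T cells among others, while CD79B was at 0 in cDCs.

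The cDCs held more UMIs per cell than monocytes. The median cDC had 15638 UMIs and 3690 genes, while the median monocyte had 11078 UMIs, the median pDC 14536 and the median kept barcode 5363. Within each of the 17 dogs the cDC median lay above the monocyte median. Since a rule on detected genes depends on depth, each barcode with at least 2000 UMIs was also thinned to 2000 before the rule was applied. The rule then found 448 cells, 298 of them within the limits on UMIs and genes. Those 298 had a median of 15388 unthinned UMIs, and their median lay above that of monocytes with at least 2000 UMIs and within the same limits in 17 of 17 dogs. The thinning left out 10552 shallower barcodes, 4606 from healthy dogs and 5946 from dogs with OS.

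The upper limits on UMIs and genes removed cDCs more than other cells. A further 492 barcodes met the rest of the rule and lay above the limits, with a median of 23194 UMIs. They were 32.4% of the 1520 barcodes that met the rule with no upper limit, against 4.11% of monocytes, 5.42% of B cells, 18.6% of pDCs, 0.0666% of T cells and 3.43% of all barcodes. Of these 492, Scrublet marked 40 (8.13%) as likely doublets, against 15.9% of all barcodes above the limits. The share lost per dog ran from 8.54% to 69.3%, and in 5 dogs it was over 50%. Among healthy dogs its lowest, median and highest values were 11.9%, 33.7% and 69.3%, and among dogs with OS 8.54%, 24.6% and 64.7%. The groups overlapped over most of that range.

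The first comparison between the groups asked whether dogs with OS had fewer circulating cDCs. As a share of kept barcodes, cDCs had a lowest, median and highest value of 0.778%, 1.13% and 2.07% in healthy dogs and 0.306%, 1.25% and 2.43% in dogs with OS. The dogs with OS spanned the healthy range, with both the lowest dog (dog 2, 19 of 6219 barcodes) and the highest (dog 5, 134 of 5505). Means were 1.27% ± 0.521 (SD, 7 dogs) and 1.18% ± 0.595 (SD, 10 dogs). The shift from healthy to OS was -0.107 percentage points with a 95% interval of -0.630 to 0.517 (p = 0.887 in an exact rank-sum test, two-sided, with an adjusted p of 0.887 over 4 such tests). The interval spans lower and higher shares in OS, each by a large part of the healthy mean. With no upper limit the means were 1.92% ± 0.575 and 1.69% ± 0.541, with p = 0.601 in the same exact test, and without the monocyte-gene-rich cells the shift was -0.0255 points (p = 0.813, exact test).

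**Figure D2:**
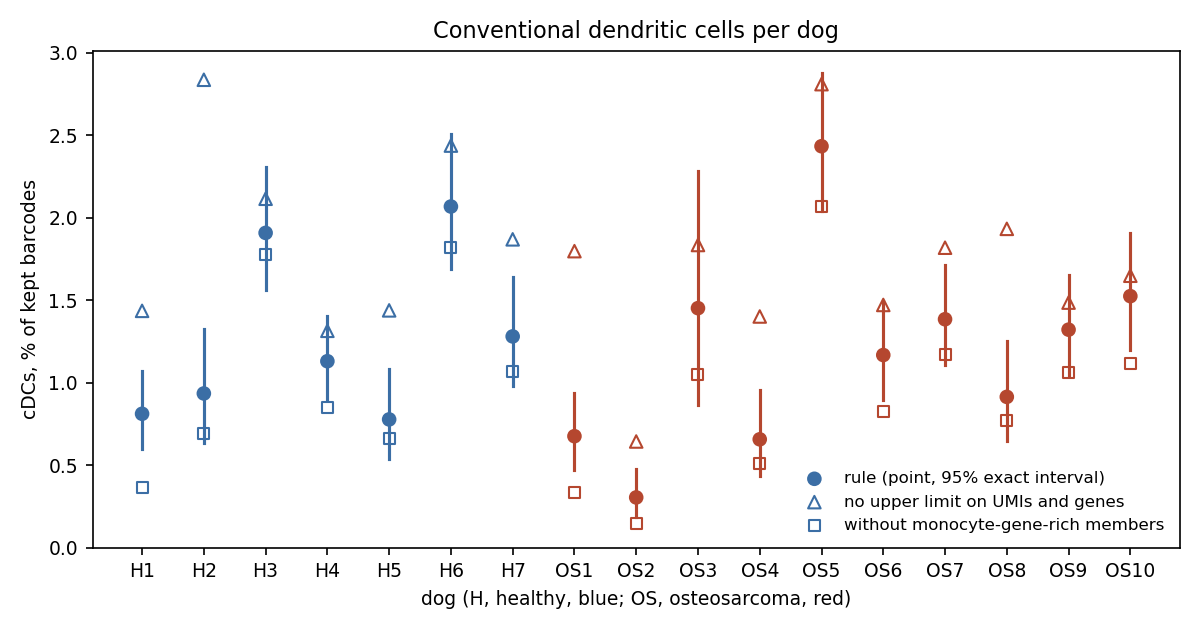
cDCs as % of kept barcodes (y axis) in each of the 7 healthy dogs (blue) and 10 dogs with OS (red); filled points are the share under the rule with its exact 95% binomial interval, triangles the share with no upper limit on UMIs and genes, and squares the share without the monocyte-gene-rich cells. Filled points lay between 0.778% and 2.07% in healthy dogs and between 0.306% and 2.43% in dogs with OS.

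The denominator bears on this share. Neutrophil-like barcodes, which Ficoll separation removes to a varying degree, made up between 1.56% and 32.4% of kept barcodes in healthy dogs and between 2.47% and 9.94% in dogs with OS. The 32.4% came from healthy dog 7, and the next healthy dog was at 6.02%. With these barcodes left out of the denominator, the shift was -0.202 points (p = 0.669, exact two-sided rank-sum test). Set against monocytes alone, cDCs were 10.2% ± 2.49 (SD, 7 healthy dogs) of cDCs and monocytes together, against 7.33% ± 2.91 (SD, 10 dogs with OS), with p = 0.0702 (exact two-sided rank-sum test). The lowest, median and highest values were 6.70%, 10.5% and 12.8% in healthy dogs and 3.62%, 6.94% and 11.3% in dogs with OS, and 3 of the 10 dogs with OS lay above the healthy median. The p of 0.0702 was unadjusted and the lowest over 14 settings, in which exact tests gave up to 0.962. These include the main setting and do not count single dogs left out.

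Genes of antigen presentation on MHC class II were high in cDCs. HLA-DQB2, DLA-DQA1, DLA-DMA and DLA-DOA, which encode class II chains and the chaperones that edit their peptides, CIITA, the master activator of class II genes, and IFI30, the thiol reductase that unfolds antigens, were above the level in monocytes in each of the 15 dogs. Since the rule chose these cells by genes, levels beside other populations are a description with no test. Monocytes were the 11862 barcodes with FLT3 at 0, DLA-DRA above 0 and at least 3 of the 6 monocyte genes.

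HLA-DQB2 had a lowest, median and highest level of 1839, 2871 and 4158 CPM over the 15 dogs, with a mean of 2880 ± 593 (SD). The monocyte mean was 908 ± 181 and the B cell mean 1357, and without the monocyte-gene-rich cells the cDC mean was 3462 ± 599 (11 dogs). DLA-DMA ran from 510 to 855 CPM around a median of 764, against a mean of 391 ± 56.3 in monocytes. DLA-DOA, which restrains peptide exchange and is usually a B cell gene, was at 104 ± 31.4 CPM in cDCs, 0.976 in monocytes and 170 in B cells. CIITA was at 219 ± 53.1 CPM in cDCs, 74.4 in monocytes and 256 in B cells. IFI30 was at 976 ± 248 CPM, against 237 in monocytes and 317 in B cells. The means without those cells were 829 CPM for DLA-DMA, 140 for DLA-DOA, 244 for CIITA and 1219 for IFI30. All of these levels are per dog, and none of the 6 genes was lower in cDCs than in monocytes in any of the 15 dogs.

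Not all of the pathway was higher. CD74, the invariant chain that escorts class II molecules, was at 3819 ± 1420 CPM against 3230 ± 1743 in monocytes, and above monocytes in 14 of 15 dogs. The protease CTSS, which cuts the invariant chain, was at 973 ± 150 CPM against 1551 ± 220, and MARCHF1, the ligase that removes class II from the surface, at 783 ± 132 against 1127 ± 151. Both were below the monocyte level in all 15 dogs. CD74 was at 3554, CTSS at 818 and MARCHF1 at 734 CPM without the monocyte-gene-rich cells. Of the 12 class II genes in the files, 6 were above and 2 below monocytes in every dog, where 10.3% of the 10584 genes with a mean of at least 1 CPM were above and 10.1% below. Without the monocyte-gene-rich cells the counts were 7 and 4 of 12, against 16.97% and 15.6% of genes in 11 dogs.

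**Figure D3:**
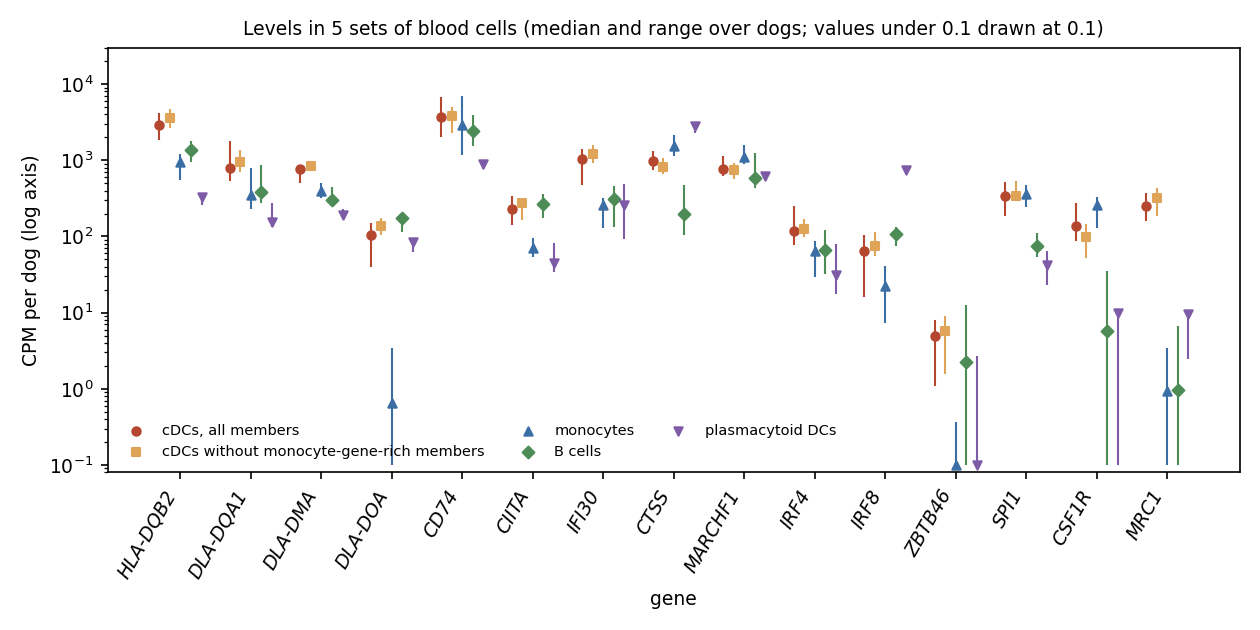
Levels per dog (CPM, log axis) of 15 genes in cDCs (all members, and without the monocyte-gene-rich cells), monocytes, B cells and pDCs; points are medians and lines the range over dogs, and values under 0.1 are drawn at 0.1. The class II genes HLA-DQB2, DLA-DQA1 and DLA-DMA were higher in cDCs than in monocytes, while CTSS and MARCHF1 were lower, and pDCs rest on 3 dogs.

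Regulators of dendritic cell development were split. IRF4 was at 124 ± 42.2 CPM in cDCs and 61.8 in monocytes, and IRF8 at 65.2 ± 22.2 and 23.8, each above monocytes in all 15 dogs. IRF8 was below the mean of 106 CPM in B cells and far below that of 746 CPM in pDCs. ZBTB46, the transcription factor that marks cDCs among mouse myeloid cells, was rare at 5.229 ± 1.962 CPM with a UMI in 6.23% of cDCs, yet its monocyte mean was 0.0613 CPM. ZBTB46 had a UMI in 0.964% of T cells. RUNX3 stood at 18.8 ± 12.5 CPM, against 1.82 in monocytes. Means without those 220 cells were 127 CPM for IRF4, 78.02 for IRF8, 5.62 for ZBTB46 and 18.6 for RUNX3.

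Among the developmental genes, ZEB2 and CSF1R were lower in cDCs than in monocytes. ZEB2 was at 1648 ± 670 CPM against 3502 ± 702 in monocytes, and CSF1R, the receptor that drives monocyte and macrophage growth, at 144 ± 52.0 against 251 ± 46.5. Both were below monocytes in all 15 dogs and lower still without the monocyte-gene-rich cells, at 1028 and 97.9 CPM. TCF4, the pDC regulator, was at 242 ± 94.9 CPM, or 293 without those cells, against 3228 in pDCs. Of 16 listed developmental genes, 4 were above and 5 below monocytes in every dog, beside the 10.3% and 10.1% of all genes. Without the monocyte-gene-rich cells the counts were 6 and 6 of 16, beside 16.97% and 15.6% of genes in 11 dogs.

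MRC1, CD1C, ECM1, CD300H and FCER1A, which encode surface or secreted proteins, were each above monocytes in all 15 dogs. MRC1 ran from 161 to 373 CPM around a median of 249.9, against a mean of 1.26 in monocytes, but it was chosen after these levels were seen. CD1C was at 100.4 ± 60.3 CPM, with a lowest and highest dog of 20.3 and 203, against 12.9 in monocytes. ECM1, which encodes a secreted matrix protein, was at 133 ± 40.4 against 18.8, and CD300H, an activating myeloid receptor, at 349 ± 106 against 219.6. FCER1A, the high-affinity IgE receptor chain, was at 84.9 ± 57.9 CPM in cDCs, 1.06 in monocytes and 542 in pDCs. Without the monocyte-gene-rich cells the means were 315.5 CPM for MRC1, 136 for CD1C, 171.5 for ECM1, 390.3 for CD300H and 114 for FCER1A. Of the 7 cDC2-associated genes in the files, 4 were above monocytes in every dog and 3 were mixed, beside 10.3% of all genes above. CLEC10A, a mixed one, was at 5.62 CPM in the pooled monocyte-gene-rich cells and 3.78 CPM in the others. FCER1A is from the 8 pDC markers, of which 2 were above and 6 mixed.

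Costimulatory genes were detected, and genes of dendritic cell maturation were mixed. CD86, a ligand of CD28 on T cells, was at 282 ± 31.8 CPM against 213 in monocytes and above them in 14 of 15 dogs. CD40 was at 29.5 ± 7.92 and CD80 at 25.9 ± 11.03 CPM. The 3 means were 277, 32.04 and 33.4 CPM without the monocyte-gene-rich cells. CD83, a surface marker of mature dendritic cells, had a lowest, median and highest level of 31.1, 128 and 1546 CPM against a monocyte mean of 577. Its mean was 88.9 CPM without the monocyte-gene-rich cells, where healthy dog 1, the dog at 1546 CPM, was left out as well. RELB, an NF-kB subunit, had a lowest, median and highest level of 49.1, 79.7 and 199.7 CPM, against a monocyte mean of 139, and a mean of 72.7 without those cells. CCR7, the receptor that takes mature dendritic cells to lymph nodes, had a mean of 0.602 CPM and was at 0 in the median dog, while the products CCL17, CCL22 and IL12B had 0 UMIs in all 1028 cDCs, which allows a level of up to 0.193 CPM (3 UMIs in all).

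Some sensors of microbial products also differed from monocytes. Of 17 such genes in the files, 1 was above and 6 below monocytes in every dog and 10 were mixed. Of all genes, 10.3% were above and 10.1% below. Without the monocyte-gene-rich cells the counts were 4 above and 7 below of 17, beside 16.97% and 15.6% of genes in 11 dogs. TLR3, which binds double-stranded RNA, was at 47.3 ± 19.7 CPM against 1.81, and above monocytes in all 15 dogs, although pDCs had 379 CPM. TLR4, the lipopolysaccharide receptor, was at 29.5 ± 15.5 CPM against 83.7, and the inflammasome gene NLRP3 at 218 ± 35.8 against 384, both below monocytes in all 15 dogs. TLR3 was at 61.2, TLR4 at 12.9 and NLRP3 at 180 CPM without the monocyte-gene-rich cells. LYZ, the lysozyme gene, was at 9654 ± 2601 CPM against 20566, and 6615 without the monocyte-gene-rich cells, but it is one of the 6 genes that chose the monocytes and the monocyte-gene-rich cells, so these levels describe that choice.

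The cDCs were then split by genes the rule had not used. A cell was called cDC1-gene-high when it had a UMI of at least 2 of 10 cDC1-associated genes, among them XCR1, CADM1, CLNK, KIT and WDFY4, and more of them than of 6 cDC2-associated genes, among them CD1C, CD300H, CD86 and ECM1, and cDC2-gene-high in the reverse case. CLEC9A and SIRPA, which were on these lists, have no entry in the files used here. There were 124 cDC1-gene-high cells (12.06%), 796 cDC2-gene-high cells (77.4%) and 108 undetermined. The split is a range and not a gap, since 31 of the 124 and 286 of the 796 were ahead by only 1 gene. Median UMIs were 16656, 15626 and 14791, and 193 of the 220 monocyte-gene-rich cells were cDC2-gene-high while 3 were cDC1-gene-high.

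Genes outside the split differed between the 2 kinds of cell. In the 14 dogs with at least 5 cells of each kind, IRF8 was higher in cDC1-gene-high cells in 13, at 301 against 27.0 CPM over the pooled cells, and TLR3 in 13 of 14, at 135 against 34.4 CPM. ZBTB46 was at 14.8 and 3.29 CPM. BATF3 and ZNF366 were at 531 and 141 CPM and at 320 and 121 CPM, but both are rule genes, so their levels are no independent mark of the split. XCR1, the chemokine receptor of cDC1s and a gene of the split, gave 22 UMIs in all 124 cDC1-gene-high cells and 0 in the 796 others.

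Further genes stood out on the cDC1 side and were chosen for that difference. TOX, a regulator of T cell and innate lymphoid development, was at 278 against 6.003 CPM and higher in all 14 dogs. CLEC1B, a C-type lectin receptor, was at 238 against 45.8 CPM, and SELPLG, the P-selectin ligand, at 173 against 72.4 CPM, each in all 14 dogs. ECM1 had been used on the cDC2 side of the split and was nonetheless higher in cDC1-gene-high cells, at 279 against 117 CPM and in 13 of 14 dogs.

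Other genes were higher in cDC2-gene-high cells. IRF4 was at 127 CPM against 63.3 and higher in 12 of 14 dogs. Of genes that stood higher in monocytes than in cDCs, CSF1R was at 158 against 27.96, ZEB2 at 1690 against 450, NLRP3 at 234 against 80.2 and LYZ at 11335 against 1923, each higher in all 14 dogs. Without the monocyte-gene-rich cells the cDC2-gene-high levels were 113 CPM for CSF1R, 1180 for ZEB2, 206 for NLRP3 and 7725 for LYZ, which left the direction of each as it was in all 14 dogs. CX3CR1, the fractalkine receptor, was at 13.1 CPM in cDC2-gene-high cells, or 8.53 without the monocyte-gene-rich cells, and gave a single UMI in cDC1-gene-high cells (0.528 CPM). IFI30 was also higher, at 1073 against 621 CPM and in 13 of 14 dogs. Class II levels were closer. HLA-DQB2 was at 3263 CPM in cDC1-gene-high and 2893 in cDC2-gene-high cells, with 9 dogs higher on the cDC1 side and 5 on the other.

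**Figure D4:**
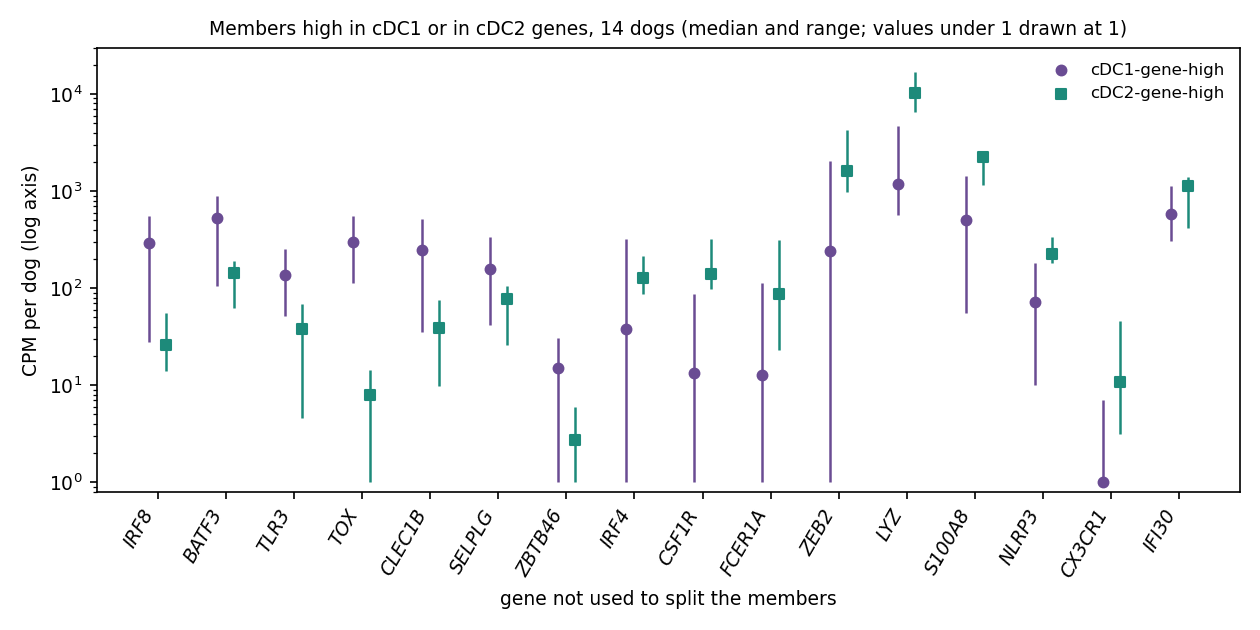
Levels per dog (CPM, log axis) in cDC1-gene-high (circles) and cDC2-gene-high cells (squares) for 16 genes not used to split them; points are medians and lines ranges over the 14 dogs with at least 5 cells of each kind, and values under 1 are drawn at 1. IRF8, TLR3 and TOX were higher in the first, as was the rule gene BATF3, and CSF1R, ZEB2, LYZ and NLRP3 in the second.

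The upper limits also weighed on this split. Above them lay 120 further cDC1-gene-high and 311 further cDC2-gene-high barcodes, which were 49.2% of all barcodes given the first label and 28.1% of those given the second. The split counts detected genes, and its cDC1 list is longer than its cDC2 list. The labels therefore depend on depth, and the barcodes above the limits are the deeper ones. Whether depth moved barcodes to the cDC1 side there was not tested. The cDC1-gene-high share per dog had a lowest, median and highest value of 8.16%, 11.54% and 25.8% in healthy dogs and 8.96%, 9.68% and 25.9% in dogs with OS. The groups covered the same range. Means were 14.4% ± 6.32 (SD, n = 7) and 14.1% ± 7.08 (SD, n = 8), with a shift of -1.69 points (95% interval -9.14 to 8.50, exact two-sided rank-sum test, p = 0.613, adjusted p = 0.887). With no upper limit the shift was -2.70 points (7 and 9 dogs, exact test, p = 0.408). These shares rest on 4 to 12 cDC1-gene-high cells per dog, so that moderate differences were not detectable at this depth.

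In depth per cDC the groups overlapped. Per dog, median UMIs averaged 16072 ± 1022 in healthy dogs and 15802 ± 1181 in dogs with OS, with a shift of -251 UMIs (95% interval -1679 to 1072, n = 7 and 8, exact test, p = 0.867, adjusted p = 0.887). The median genes averaged 3757 ± 134 and 3659 ± 151, with a shift of -101 genes (95% interval -250.0 to 99.0, exact test, p = 0.397, adjusted p = 0.887). The upper limits cut these medians from above and so narrow their spread. With no upper limit the median UMIs averaged 18161 ± 2383 (SD, 7 healthy dogs) and 18052 ± 2672 (SD, 10 dogs with OS). The shifts were then -272 UMIs (exact test, p = 0.962) and -44.5 genes (exact test, p = 0.813).

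The next question was which genes of cDCs differed in dogs with OS. None passed the test. UMIs were summed over the cDCs of each dog and fitted with edgeR's quasi-likelihood test for 11146 genes, and a gene was called at a Benjamini-Hochberg adjusted p below 0.01 with an absolute log2 fold change above 0.58. Of these genes 0 were called (0%), and DESeq2 on the same sums also called 0. At an unadjusted p below 0.05 there were 490 genes (4.4%) by edgeR, 210 higher in OS (1.88%) and 280 lower (2.51%), and 429 (3.85%) by DESeq2. The median standard error of a log2 fold change was 0.22 for the 5521 genes at 10 to 100 CPM and 0.16 for the 1623 genes at 100 to 1000 CPM.

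The 5 genes with the smallest p in each direction at a mean of at least 10 CPM are given as values that were not called (edgeR's adjusted p = 0.9997 for each of the 10). GCH1, the first enzyme of tetrahydrobiopterin synthesis, had a lowest, median and highest level of 1.91, 4.01 and 7.06 CPM in healthy dogs and 0, 15.7 and 42.0 CPM in dogs with OS (log2 fold change 1.98 ± 0.48, SE). The groups overlapped through 1 dog with OS below the healthy median. IL31RA, an interleukin-31 receptor chain, stood at 0, 9.35 and 25.9 CPM and 8.32, 26.2 and 40.2 CPM (log2 1.46 ± 0.38). EXTL3 (log2 0.86 ± 0.21), POU2F2 (0.61 ± 0.18) and ENSCAFG00000029405 (0.85 ± 0.24) completed the higher side, each above the healthy median in all 8 dogs with OS. With the replicate block ENSCAFG00000029405 shrank to 0.40. On the lower side, KCNN2, a calcium-activated potassium channel, stood at 20.2, 66.9 and 105 CPM in healthy dogs and 12.99, 25.4 and 54.4 CPM in dogs with OS (log2 -1.35 ± 0.31), with all 8 dogs with OS below the healthy median. RFWD3, a ubiquitin ligase of DNA repair, had a log2 fold change of -1.29 ± 0.32, and LNPK (-0.69 ± 0.18), SEC24C (-0.67 ± 0.19) and IPO11 (-0.65 ± 0.19) followed. With no upper limit on UMIs and genes LNPK shrank to -0.12, IPO11 to -0.25 and SEC24C to -0.36, and with at least 3 rule genes RFWD3 shrank to -0.58.

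Over the listed pathways, 0 of the 232 genes tested were called, and 14 were higher and 7 lower at an unadjusted p below 0.05, beside 1.88% and 2.51% of all genes tested. The lists and the background are read side by side here, with no test of a list. Class II presentation had 0 of 12 genes at that p and a median log2 fold change of 0.00, with 6 genes higher and 6 lower, against -0.01 for all genes. The cDC1 and cDC2 lists had 0 of 9 and 0 of 7, with medians of 0.04 and 0.09. Of 16 developmental genes 1 passed that p, CSF1R, at 86.9, 106 and 223 CPM in healthy dogs and 119, 152 and 275 CPM in dogs with OS (log2 0.46 ± 0.21). The highest CSF1R values of both groups came from healthy dog 1 and dog 1 with OS, which had 55.1% and 50% of monocyte-gene-rich cells. Without healthy dog 1 the CSF1R fold change was 0.69, and without dog 1 with OS it was 0.36.

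Interferon-stimulated genes had higher estimates in dogs with OS, none of them called. Type I interferons switch on these antiviral genes in most cells. All 16 tested genes had a higher estimate in dogs with OS, with a median log2 fold change of 0.69, and 5 of the 16 had an unadjusted p below 0.05 (ISG15, OAS1, IFIT1, IFI44 and EIF2AK2), where 1.88% of all genes did so in that direction. None was called, and edgeR's adjusted p was 0.9997 for each of the 16. The summed level of the list had a lowest, median and highest value of 234, 323 and 767 CPM in healthy dogs and 215, 519 and 968 CPM in dogs with OS, so that the ranges overlapped almost fully.

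ISG15, a ubiquitin-like protein attached to viral and host proteins, stood at 0, 3.70 and 23.2 CPM in healthy dogs and 3.78, 16.8 and 93.4 CPM in dogs with OS (log2 2.01 ± 0.69). OAS1, which makes the signal that activates RNase L, stood at 3.70, 14.4 and 83.7 CPM and 18.1, 49.0 and 99.9 CPM (log2 1.13 ± 0.51). Healthy dog 7 gave the highest healthy value of OAS1, IFIT1 and the RNA sensor DDX58, and the other healthy dogs lay well below it. IFI44 stood at 3.81, 9.32 and 42.4 CPM and 10.6, 30.6 and 89.8 CPM (log2 1.08 ± 0.48). The 8 dogs with OS in the fit lay above the healthy median for ISG15, OAS1 and IFI44, some only just. For ISG15, dogs 4, 5, 6 and 7 with OS, at 4.67, 6.05, 5.42 and 3.78 CPM, lay within the healthy range, and dogs 1, 8, 9 and 10 lay above it. Of the dogs left out, dog 2 with OS stood at 14.6 and dog 3 at 0 CPM of ISG15. The share of all genes with such a pattern was not counted. Single dogs and settings weighed on the fold changes of these genes. With healthy dog 7 left out, OAS1 had an estimate of 1.92 and EIF2AK2 one of 1.85, against 1.13 and 1.07, while the replicate block lowered ISG15 to 0.38 and OAS1 to 0.50, and a demand for at least 3 rule genes lowered EIF2AK2 to 0.09 and IFI44 to 0.64. Without the monocyte-gene-rich cells 15 of the 16 genes had a higher estimate, 3 at that p, with a median of 0.60. In the monocytes of the same dogs the median was 0.46, with 0 of 16 at that p. The difference of the effect between cDCs and monocytes was at an unadjusted p below 0.05 for 4 of the 16, against 4.6% of the 14006 genes tested (2.11% upward, 2.49% downward), and none was called.

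**Figure D5:**
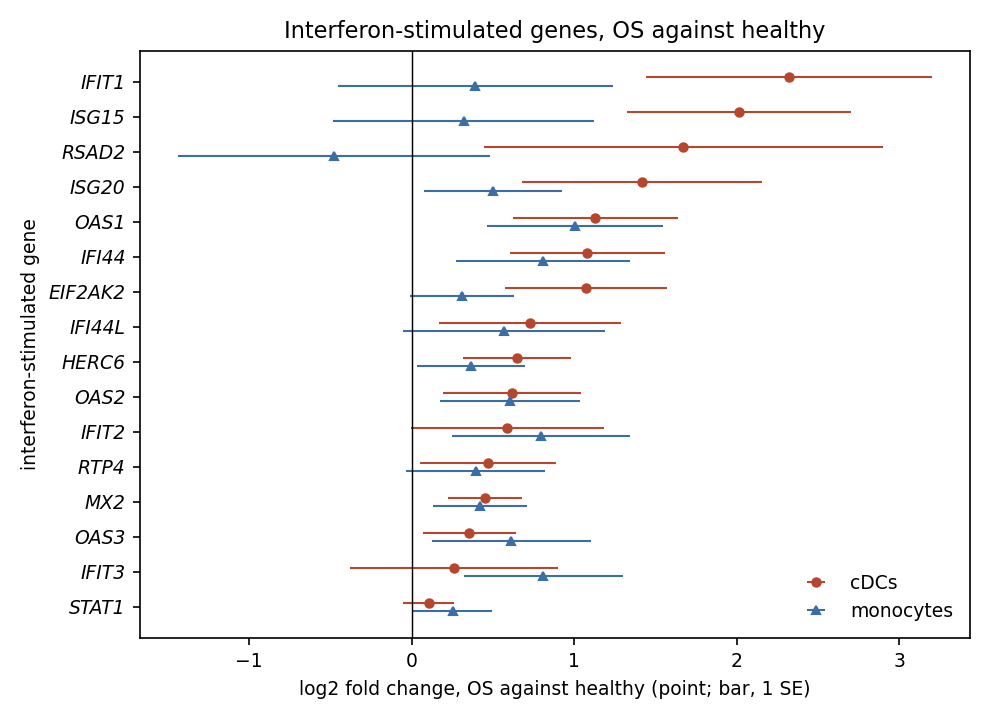
Log2 fold change between dogs with OS and healthy dogs (x axis; bars are 1 SE) of the 16 interferon-stimulated genes tested, in cDCs (circles) and monocytes (triangles) of the same dogs. All 16 estimates lay above 0 in cDCs, with a median of 0.69, and none was called.

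Platelet markers had higher estimates in dogs with OS, and none was called. All 4 tested (of 5 listed) had a higher estimate in dogs with OS, with a median log2 fold change of 1.39, and TUBB1 and ITGA2B had an unadjusted p below 0.05. Their summed level had a lowest, median and highest value of 1.85, 14.9 and 40.7 CPM in healthy dogs and 17.2, 41.7 and 75.6 CPM in dogs with OS. In monocytes the median log2 fold change of the 4 was 0.88. Markers of other cells followed no single direction. Of 9 monocyte markers 1 had an unadjusted p below 0.05, FN1 (log2 1.42 ± 0.62, and 2.19 once healthy dog 1 was dropped or 1.00 once dog 1 with OS was), with a list median of 0.23, and 8 pre-DC markers all had a lower estimate, with a median of -0.21 and 0 at that p. The lymphoid and other markers PAX5, EBF1, LEF1, PRKG1 and IL1R2 were lower at that p, from at most 22.9 CPM in any dog for the first 4 and 90.5 CPM for IL1R2. The part of these cells in the interferon-stimulated and other results was not tested.

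In the remaining lists none was called either. Of 15 class I presentation genes 1 was at an unadjusted p below 0.05, CALR, the calreticulin chaperone (log2 0.34 ± 0.14, and 0.21 with at least 3 rule genes), and of 16 pattern recognition genes 3 were, MYD88 (0.57 ± 0.25, and 0.29 without the monocyte-gene-rich cells), CD180 (0.49 ± 0.19, and 0.77 with at least 3 rule genes) and DDX58 (0.93 ± 0.39, and 0.21 with the replicate block). Of 16 costimulation and maturation genes 1 was, CCR7 (-3.61 ± 1.18, and -0.53 with no upper limit). It had a healthy range of 0 to 6.05 CPM around a median of 0.621, and was at 0 in all 8 dogs with OS in the fit. Dogs 2 and 3 with OS, left out of the fit, stood at 3.65 and 0 CPM of CCR7. Glucocorticoid-responsive genes had 1 of 10 in each direction. These were FKBP5 (1.09 ± 0.44), where dog 9 with OS stood at 931 CPM against an OS median of 117 over the 8 dogs, and MT1E (-1.20 ± 0.56). Dog 3 with OS, left out of the levels for its 18 cDCs, stood at 985 CPM of FKBP5, and with dogs of at least 10 cDCs the estimate was 1.41. Without dog 9 with OS the FKBP5 value was 0.28, and without healthy dog 6 the MT1E value was -0.25. Inflammatory mediators had 0 of 18 and a median of 0.04 by edgeR. DESeq2, which replaced the count of healthy dog 1 as an outlier, gave TNF 3.21 (p = 7.9e-05, adjusted p = 0.23) and IL1B 3.70 (p = 0.0206, adjusted p = 0.999), where edgeR gave 0.01 and 1.44. With no count replaced, DESeq2 gave TNF -0.05 and IL1B 1.41. Without the monocyte-gene-rich cells that list had 5 of 17 higher and 1 lower at an unadjusted p below 0.05, with a median of 0.70, against 283 and 271 of 10602 genes. That fit of 5 healthy dogs against 6 with OS called 0 genes. It also left out healthy dog 1 and dog 1 with OS, the highest fitted dogs of their groups for CXCL8 (3470 and 1518 CPM) and IL1B (271 and 766 CPM). The part of the cells and of these dogs cannot be told apart. In the same fit the 9 monocyte markers had a median of 0.72, with 3 higher and 1 lower at that p.

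Finally, the effect of OS in cDCs was compared with that in monocytes of the same dogs. An interaction fit over 14006 genes called 0 (0%), with 644 at an unadjusted p below 0.05 (4.6%) by edgeR and 445 by DESeq2. No gene was thus shown to respond differently in cDCs. CLNK, an adaptor of immunoreceptor signalling and a cDC1 gene, had the smallest p among genes with a more positive effect in cDCs, with a difference of 1.23 and edgeR's adjusted p of 0.36. Its cDC level was 28.3, 54.8 and 147 CPM in healthy dogs and 41.6, 56.1 and 162 CPM in dogs with OS, while its monocyte median was 3.79 and 1.74 CPM. PLCB4 (1.42), SPRYD7 (0.47), CAMK1D (0.48) and TBC1D31 (0.94) followed. On the other side stood ENSCAFG00000031628 (-0.65), JOSD1 (-1.16), LNPK (-0.65) and EMC3 (-0.55), none of them called. With no upper limit PLCB4 shrank to 0.89, TBC1D31 to 0.46, LNPK to -0.19 and EMC3 to -0.25, and with dogs of at least 10 cells JOSD1 shrank to -0.69. Monocytes alone, fitted the same way over 13752 genes in these dogs, also had 0 called, with 1413 (10.3%) at an unadjusted p below 0.05, 5.58% higher in OS and 4.69% lower.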

How the data were processed

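Blood leukocytes of 17 dogs were profiled with 10x Genomics 3' chemistry. The authors deposited raw UMI counts per gene and barcode, 1 matrix per dog, with 20257 genes. The submitters' processing notes name Cell Ranger 7.0.0, CanFam3.1 and Seurat; whether intronic reads were counted in the deposited matrices is not given in the sources used here. No cell annotation was used, and cells were chosen from the deposited counts by the stated rule. The members and gene lists were chosen with earlier results of these data known.

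Monocytes were kept barcodes with DLA-DRA, without CD3E, MS4A1 and FLT3, and with at least 3 of 6 monocyte genes. B cells had MS4A1, no CD3E and at least 2 of PAX5, BANK1, EBF1 and CD79A. T cells had CD3E, no MS4A1 and under 10 DLA-DRA UMIs. The pDCs had at least 3 of COBLL1, RAB3C, IGF1, RYR1, PRKG1 and STYXL2. Doublets were scored with Scrublet in scanpy 1.11.5, marked from the highest score up to an expected rate per library, and left in. Monocyte-gene-rich members (at least 5 of 6 monocyte genes) were defined after seeing the data, and so were the fits with no upper limit, of cDC2-gene-high cells alone, and by DESeq2 with no count replaced.

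Shares and depth were compared with exact two-sided Wilcoxon rank-sum tests (scipy 1.17.1), with Benjamini-Hochberg adjustment over 4 tests and shifts as Hodges-Lehmann estimates. UMI sums per dog (at least 25 cells; genes with at least 10 counts in all) were fitted with edgeR 4.0.16 in R 4.3.3 (TMM, quasi-likelihood test), with DESeq2 1.42.0, which replaced outlier counts of 32 genes, as an alternative; other alternatives changed filters, doublets, thresholds, age as covariate, the replicate block and single dogs. On simulated counts with 200 genes changed 3-fold, the test of OS against healthy recovered 56% of them, and 97.9% of the 48 with a mean of at least 50 counts. It called 1 unchanged gene among 11146. For the difference from monocytes the test recovered 59%, 98.1% of 103, and called 8 unchanged genes among 14006. That second simulation gave each gene the same level in cDCs and monocytes and no level particular to a dog, unlike the data. Its shares therefore do not give the power for genes whose levels differ between the populations.

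The rule for named genes was: the genes of the rule, cDC1, cDC2, development and class II lists; of every other list the 3 highest in cDCs and those at an unadjusted p below 0.05; and per direction the 5 of smallest p at a mean of at least 10 CPM. The text gives part of these. Other genes named were chosen after their values were seen. Of 278 listed genes, 22 have no entry in the files used here. Some genes that the rule names are not reported here.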

Additional observations from a re-analysis of the deposited data

Results flagged for a closer look

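Beyond the report, 492 barcodes met the rule above the upper limits on UMIs and genes and entered no main comparison. KIT, which the rule did not use, was at 45.1 CPM in them, against 31.5 CPM in the cDCs within the limits, each over pooled cells.

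In 26 of 88 groups of values examined, 1 dog stood apart from the others of its group by Dixon's criterion. Its limits are made for normally distributed values, while some of these CPM rest on few UMIs. The genes were also picked partly by p and come from the same dogs, so the count is not read against a chance rate. Several of the dogs that stood apart recurred. Healthy dog 7 was the highest healthy dog for OAS1 (83.7 CPM), DDX58 (25.2 CPM), IFIT1 (4.04 CPM) and CCR7 (6.05 CPM). Dog 1 with OS was the highest of its group for LNPK (38.2 CPM), IL1R2 (30.6 CPM), SEC24C (28.6 CPM), JOSD1 (21.01 CPM) and CSF1R (275 CPM), and 50% of its 36 cDCs were monocyte-gene-rich. Healthy dog 1, with 55.1% of such cells, was the highest for CSF1R (223 CPM) and FN1 (246 CPM). Their part in these values was not tested.

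Healthy dog 2 was the highest for PLCB4 (371 CPM), SPRYD7 (281 CPM) and CAMK1D (715 CPM), healthy dog 5 for CLNK (147 CPM), healthy dog 6 for MT1E (175 CPM) and PRKG1 (19.3 CPM), healthy dog 4 for LEF1 (22.9 CPM), and healthy dog 3 for TUBB1 (10.7 CPM) and EBF1 (4.68 CPM). Healthy dog 3 was also the lowest for ENSCAFG00000029405 (8.02 CPM). Among dogs with OS, dog 9 stood apart for FKBP5 (931 CPM), dog 4 for PLCB4 (219.5 CPM), dog 5 for KCNN2 (54.4 CPM), dog 8 for LEF1 (6.49 CPM), and dog 10 for EBF1 (0.957 CPM), where the other 7 dogs were at 0.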

How the results depend on the processing

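No gene was called in any setting for OS against healthy except with the replicate block, where 1 was called, ENSCAFG00000030286, at a log2 fold change of 2.83 (5 dogs in each group, edgeR's adjusted p = 0.00018), against 2.65 and an adjusted p of 0.9997 without the block. Equal numbers mark different dogs, and the labels give no link between them. The correlations of equal numbers were 0.406, 0.021, -0.00632, 0.012 and -0.0227, the first between healthy dog 1 and dog 1 with OS. Why the block called ENSCAFG00000030286 was not tested. With the block the cDC1-gene-high share shifted by 1.46 points instead of -1.69 (p = 0.875, exact test), the median UMIs by 204.5 instead of -251 (p = 0.875, exact test), the cDC share by -0.119 points and the median genes by -61.5. The number of genes at an unadjusted p below 0.05 was 490, 297 with edgeR's filter on expression, which tests fewer genes, 353 with the block, and between 399 and 597 with 1 dog left out, where 0 were called; over all settings between 7167 and 14619 genes were tested. For the difference from monocytes it was between 530 and 807 with 1 dog left out, and 0 were called in each of these fits. Apart from ENSCAFG00000030286, TNF and IL1B, which were not followed through all settings and of which TNF turned from 0.01 by edgeR to -0.05 by DESeq2 with no count replaced, genes given with a log2 fold change of their own between the groups kept its sign in the settings where they could be tested, while listed genes near 0 did not all do so, such as CADM1, at -0.01 by edgeR and 0.09 by DESeq2. The sizes were less stable, since 21 of the 31 genes followed were over 1.5 times smaller in at least 1 other setting, single dogs left out not counted.

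The shift of the cDC share turned to 0.167 points with at least 1 rule gene (p = 0.962, exact test), to 0.0717 without healthy dog 3 or 6, and to 0.0409 without dog 1, 2 or 4 with OS, with a range of -0.185 to 0.0717 over single dogs left out. The shift of the cDC1-gene-high share turned to 0.130 points without marked doublets and to 2.59 with cells thinned to 2000 UMIs (2 healthy dogs, 4 with OS), and ran from -2.07 to -1.46 over single dogs left out. The shift of median UMIs was 123.5 without healthy dog 2, 14.5 without healthy dog 6, 83.0 without dog 5 with OS and 113 without dog 9 or 10 with OS (range -489.5 to 123.5), and that of genes ran from -123 to -73.2. The cause was not tested, and no interval is given for these settings.

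The main limits were the number of cDCs, 18 to 134 per dog, the upper limits that removed 32.4% of barcodes meeting the rule, the monocyte-gene-rich cells (21.4%), and age, whose span differed between the groups; with age as a covariate 0 genes were called.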
